A study of Homo sapiens with 13 samples.

Results

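MYC is a basic helix-loop-helix leucine zipper transcription factor, and MAX and MXI1 are proteins of the same network. These 3 genes, of 24875 gene symbols in the Silvestrol table, were followed through every library of a ribosome profiling study of MDA-MB-231 cells. They were chosen by name and with their mRNA and ribosome footprint (RF) values in these tables known, the mRNA value of MYC with Silvestrol above all, so their levels and changes are given as a description with errors and without p-values. The choice had been made under the description of a loss of MYC mRNA. The deposited values go against that description once the 2 lines that carry the name MYC are told apart, as set out below.

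MYC binds DNA as a dimer with MAX and activates genes of growth, ribosome production and metabolism. MAX also pairs with the MXD proteins, MNT and MXI1, and those dimers repress many of the same genes. MYC mRNA and protein are both short-lived, and the MYC mRNA is a well-known example of a message whose translation depends on the initiation complex eIF4F, of which the RNA helicase eIF4A is a part.

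Silvestrol is a plant compound that inhibits eIF4A, and INK128 is an inhibitor of the kinase mTOR. MDA-MB-231 is an established triple-negative breast cancer line, and the libraries come from this line alone. In ribosome profiling, the mRNA stretches covered by ribosomes are sequenced, and translation efficiency (TE) is the ratio of RF to mRNA level. RF libraries of the Silvestrol experiment came from untreated cells (1 library, passage 3), cells given DMSO, the solvent, for 1 h (1, passage 3), cells given 25 nM Silvestrol for 1 h (1, passage 3), and DMSO or 25 nM Silvestrol for 2 h (2 each, passages 3 and 4). mRNA was sequenced once with DMSO and once with Silvestrol, at 2 h and passage 3. In the INK128 experiment, cells at passage 3 were given DMSO or 200 nM INK128 for 2 h, with 1 RF and 1 total RNA library each. The treatment field of one library, the passage 3 Silvestrol RF library titled as 2 h, says 1 h, and that of the DMSO mRNA library says untreated, and the titles were followed.

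Counted reads per RF library ranged from 2648102 (Silvestrol, 2 h, passage 4) to 31124315, and the mRNA libraries held 50147071 reads with DMSO and 24705180 with Silvestrol. RPKM (reads per kilobase of transcript and per 1000000 reads) is relative to the library, so a change of total RNA or of total translation per cell cannot be seen in it. The cells carried the markers of the line, with VIM at an mRNA RPKM of 1461, AXL at 303.0, CD44 at 150 and KRT18 at 61.7 in the DMSO library, while ESR1, PGR and CDH1 had 0, 2 and 26 mRNA reads there and 0 RF reads at 2 h in passage 3.

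MYC mRNA was not lower but higher in the Silvestrol library. In the Silvestrol table the name MYC stands on lines of 2 RefSeq entries, NM_002467, which RefSeq lists as MYC, and NR_003367, which RefSeq lists as PVT1, the long noncoding RNA gene downstream of MYC. In hg19 the INK128 table places MYC at chromosome 8, 128748314 to 128753680, and PVT1 at chromosome 8, 128902873 to 129113499. Reads divided by RPKM and by the reads of the library give the length over which a line was counted, which is set by the transcript model. The lengths below are given after a common factor per library was removed. In the DMSO mRNA library, line NM_002467 was counted over 2931 nt and line NR_003367 over 2363 nt. In the Silvestrol mRNA library, line NM_002467 was counted over 2366 nt and line NR_003367 over 2908 nt, so the lengths had changed places.

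The RF values changed places in the same way between the passages. The 5 RF libraries of passage 3 had MYC footprints on line NM_002467, over 1750 to 1769 nt, and 0 reads on the other line. The 2 RF libraries of passage 4 had them on line NR_003367, over 1772 nt in each, and 0 reads on line NM_002467. The counted lengths before that factor was removed were set against the annotated coding length, 1362 nt for MYC. The ratio for MYC fell within the interquartile range of all genes in each of the 7 RF libraries. With DMSO at 2 h in passage 3, for example, it was 1.28, where the genes had a median of 1.31. For MYC, the line with the matching length was therefore used in each library. Matched lengths differed by at most 1.27% between libraries of the same kind. The mRNA lengths were not set against the annotation of all genes. For mRNA, the line of the MYC RefSeq entry in the DMSO library was taken as MYC. It was counted over 2931 nt, against 3721 nt for the annotated MYC transcript and 2450 nt for the longest annotated PVT1 transcript. MAX and MXI1 mRNAs were counted over more than their annotated lengths (2318 against 2010 nt, and 4374 against 3470 nt).

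**Figure D1:**
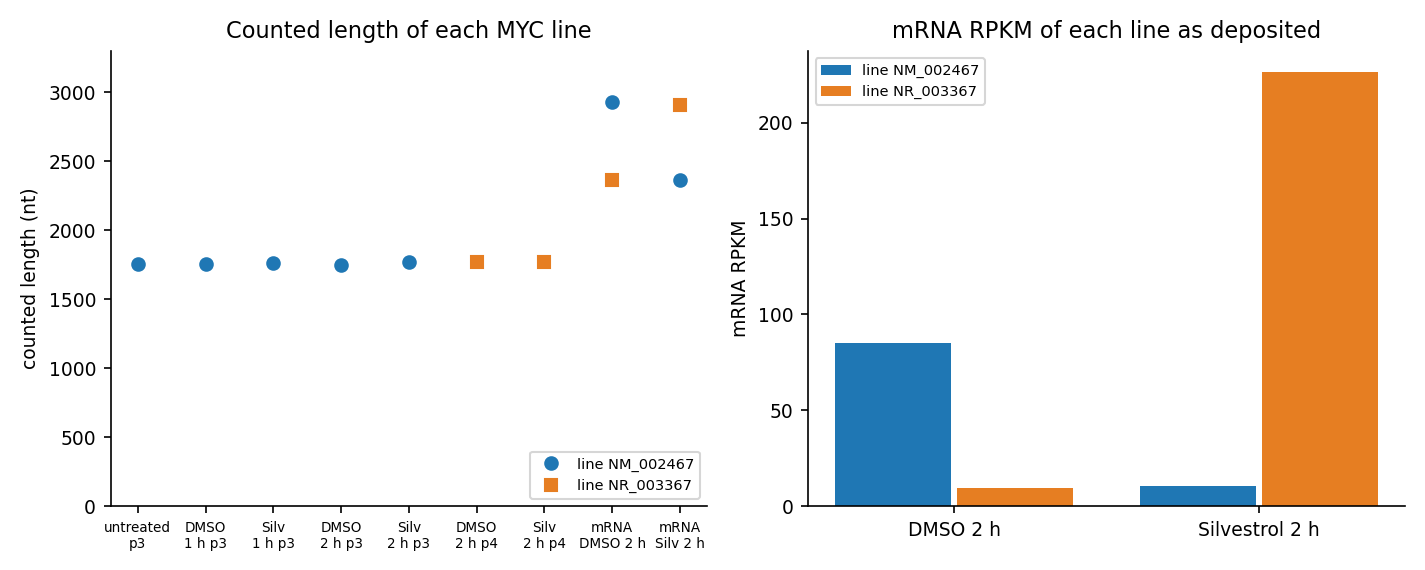
Left, the counted length in nucleotides (reads over RPKM, a common factor per library removed) of each MYC line in the 7 RF and 2 mRNA libraries. Passages 3 and 4 are p3 and p4, Silv is Silvestrol, and lines with 0 reads have no point. Right, mRNA RPKM of each line as deposited: the long line is NM_002467 at 85.2 with DMSO and NR_003367 at 226.4 with Silvestrol.

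MYC is not alone in this. Among 101 symbols with 2 entries of different, measurable lengths, the mRNA lengths were exchanged between DMSO and Silvestrol in 60, stayed in place in 36 and matched neither way in 5, within 0.25 on the log2 scale. With a tolerance of 0.2 the exchanged symbols were 65 of 107. Of symbols with 1 entry, the same line differed in mRNA length by more than 0.25 in 1.33% of entries, against 43.0% of entries of symbols with over 1 entry. For RFs, DMSO at 2 h in passage 3 against passage 4, these shares were 8.07% and 56.1%. MAX (NM_002382) and MXI1 (NM_130439) have 1 entry each.

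By the length-matched line, the DMSO mRNA library held 12522 MYC reads, an RPKM of 85.2. The Silvestrol mRNA library held 16961 reads, an RPKM of 226.4, from fewer reads in all. MYC mRNA was thus 2.66-fold higher with Silvestrol, a log2 change of 1.41 with a 95% exact binomial interval of 1.38 to 1.44 that covers counting error only, since each treatment has 1 mRNA library. Of 13095 genes with at least 50 mRNA reads, 98.6% had a lower change, and 5.85% were at least 2-fold higher while 2.54% were at least 2-fold lower.

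Reads of both MYC lines together made up 272.0 reads in every 1000000 under DMSO and 712 under Silvestrol, 2.62-fold higher. The shorter line held 8.19% of these reads under DMSO and 3.60% under Silvestrol. The sum therefore follows the longer line and cannot tell which line is MYC. Read by its label alone, line NM_002467 goes from an mRNA RPKM of 85.2 to 10.4, 8.19-fold lower, and line NR_003367 from 9.43 to 226.4, 24.0-fold higher. The entry that does not have the MYC length, matched in the same way, had an mRNA RPKM of 9.43 with DMSO and 10.4 with Silvestrol, a log2 change of 0.14.

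MYC footprints were among the most abundant of the cell. With DMSO at 2 h in passage 3, MYC stood at rank 465 of 13258 genes by RF RPKM and at rank 1048 of 17042 genes by mRNA RPKM. RF RPKM of MYC was 268.1 in the untreated library, 311 with DMSO for 1 h and 167 with Silvestrol for 1 h. At 2 h, passage 3 gave 323 for DMSO against 177 for Silvestrol, and passage 4 gave 212 for DMSO against 244 for Silvestrol. The Silvestrol libraries of passage 3 lay below each of the 4 control libraries, while the passage 4 Silvestrol library lay above its own control, so the groups overlap.

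At 1 h MYC RFs were 1.86-fold lower with Silvestrol, a log2 change of -0.90 (95% exact interval -0.94 to -0.85, counting error only, 16907 and 6551 reads), and 10.3% of 10932 genes had a lower change. At least 2-fold lower RFs at 1 h were seen in 8.16% of those genes and at least 2-fold higher RFs in 0.274%, and MYC was in neither class. At 2 h in passage 3 the log2 change was -0.86 (-0.91 to -0.81), or 1.82-fold lower. At 2 h in passage 4 it was 0.20 (0.10 to 0.30), from 2344 and 1140 reads, on the opposite side of 0 beyond counting error.

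The passages differed widely for MYC. The change in passage 4 minus that in passage 3 was 1.07 on the log2 scale for MYC, and 50 of 9243 genes, MYC included, had a difference at least as large. Over 19 genes of the list with short-lived mRNAs described below, the difference had a median of 0.39, against 0.05 over all genes, and ranged from -1.45 for SOX4 to 2.28 for EGR1, with 3 genes below 0 and 2 at or above the value of MYC. DMSO passage 4 was at -0.60 relative to DMSO passage 3, and Silvestrol passage 4 was at 0.46 relative to Silvestrol passage 3. The mean over the passages was 268 ± 78.0 RPKM with DMSO and 211 ± 47.3 RPKM with Silvestrol (SD, n = 2 each). The edgeR estimate of the change at 2 h was -0.22 with an SE of 0.25, no larger than the spread between the libraries. Blocking on passage left the estimate at -0.22 with an SE of 0.09, although the passages lie on opposite sides of 0. The unblocked estimate was 0.15 when leaving out the passage 3 DMSO library and -0.52 when leaving out the passage 4 DMSO library.

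**Figure D2:**
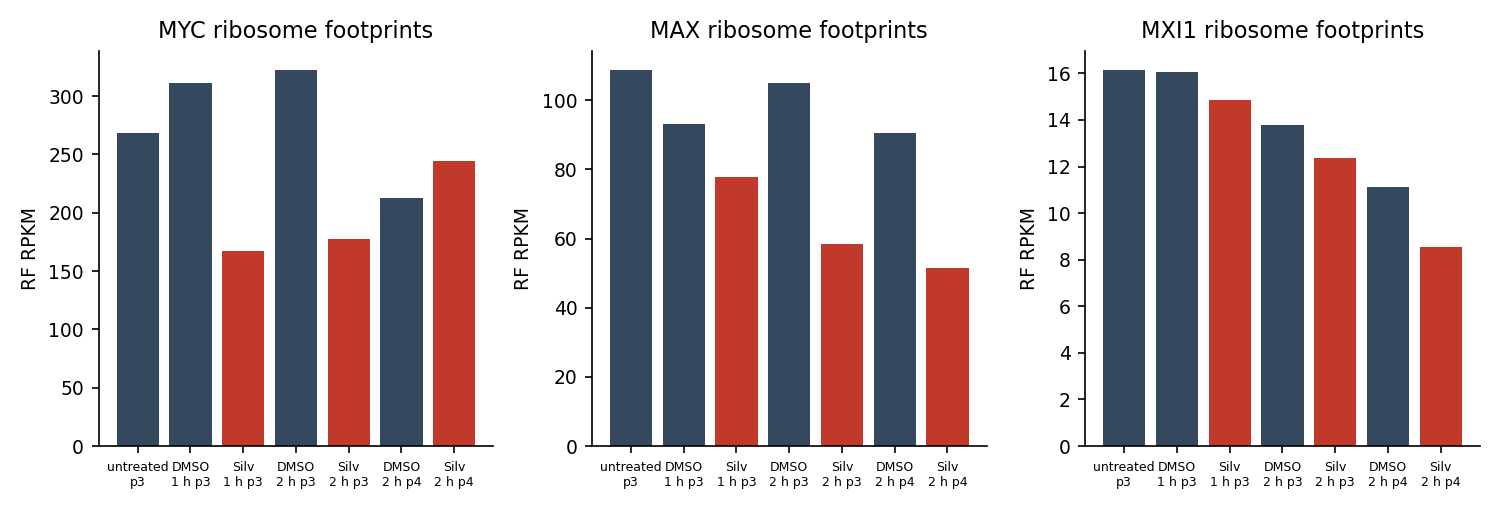
RF RPKM of MYC, MAX and MXI1 in each RF library of the Silvestrol experiment, 1 bar per library, controls dark and Silvestrol red, each panel on its own linear scale. MYC is lower with Silvestrol in passage 3 (p3) and slightly higher in passage 4 (p4), while the RPKM of MAX is below every control in all 3 Silvestrol libraries.

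Footprints of MYC did not follow its mRNA. With the DMSO mRNA library as denominator, the TE of MYC in control cells was 3.15 with the untreated RF library, 3.65 with DMSO at 1 h, 3.79 with DMSO at 2 h in passage 3 and 2.49 in passage 4, all above the gene medians of 1.64 to 1.67. With Silvestrol at 2 h the TE was 0.783 in passage 3 and 1.08 in passage 4. The log2 TE change was -2.27 in passage 3, where 2.66% of the genes had a lower one, and -1.21 in passage 4, where 16.1% did. Both passages share the mRNA libraries of passage 3, so the values are not independent and neither holds an error of the mRNA measurement.

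A TE at least 2-fold lower was common, at 23.4% of 10676 genes in passage 3 and 21.6% of 9263 genes in passage 4. The edgeR interaction over the 6 libraries gave MYC a log2 TE change of -1.53 (SE 0.42), between -1.84 and -1.17 when each RF library was left out in turn. The mRNA has 1 library per treatment, so the SE and the calls of every TE fit, DESeq2 and the block included, rest on the spread of the RF libraries alone. Across all genes this model called 0 of 14046 at an adjusted p under 0.05, with 2650 at an unadjusted p under 0.05, and DESeq2 called 519 lower and 360 higher. Blocking on passage raised the edgeR calls to 2474 lower and 2376 higher. An mRNA at least 2-fold higher together with a TE at least 2-fold lower in both passages was found for 2.91% of 9870 genes with enough reads, MYC among them. These were 287 of the 449 genes whose mRNA was at least 2-fold higher. A higher mRNA lowers TE by construction, since the same mRNA libraries are its denominator. By RFs alone, 226 of the 449 were lower in both passages, 135 higher in both and 88, MYC included, opposite in the passages.

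**Figure D3:**
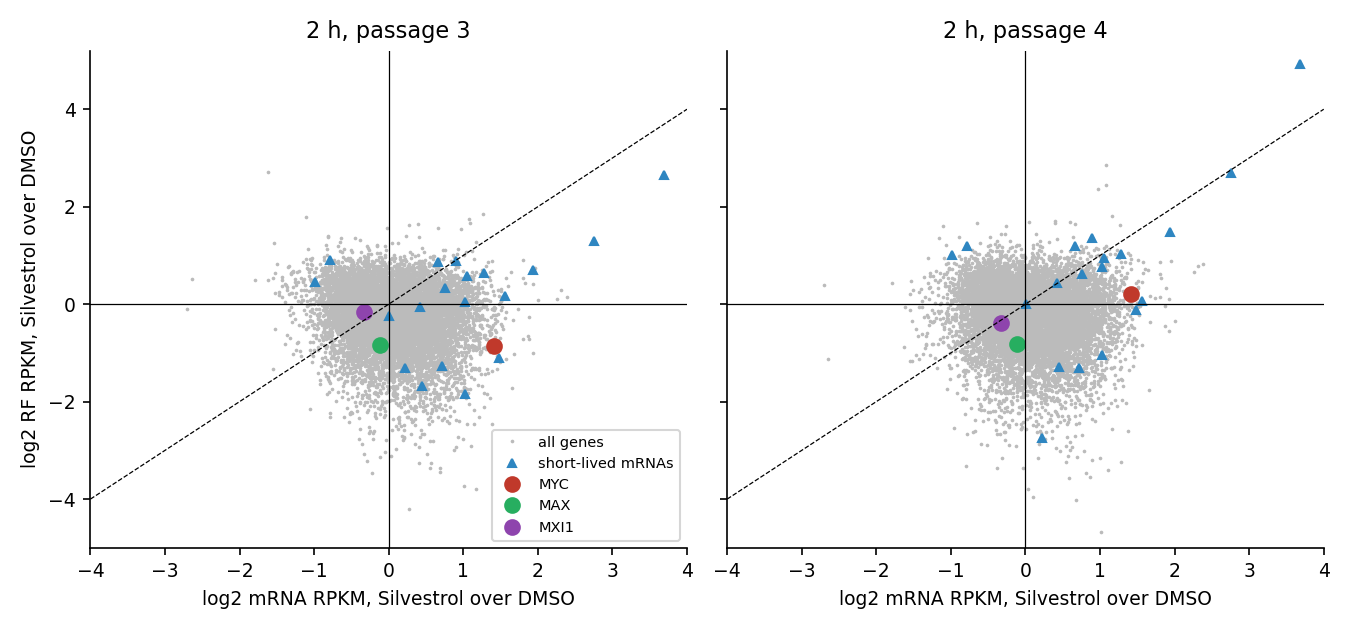
Log2 change of mRNA RPKM (x axis) against log2 change of RF RPKM (y axis) with Silvestrol at 2 h for 9870 genes, passage 3 left and passage 4 right, with the dashed line where both changes are equal and TE is unchanged. MYC sits far below that line at an mRNA change of 1.41, MAX below it and MXI1 close to it, and genes with short-lived mRNAs (triangles) extend to the right.

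MAX, the obligate partner of MYC, had lower footprints with Silvestrol at 2 h in both passages. Its RF RPKM was 109 in the untreated library, 93.2 with DMSO and 77.9 with Silvestrol at 1 h. At 2 h, DMSO and Silvestrol gave 105 and 58.4 (passage 3), then 90.5 and 51.5 (passage 4). The 4 control libraries (99.4 ± 8.89 RPKM, SD) and the 3 Silvestrol libraries (62.6 ± 13.7 RPKM, SD) did not overlap, which held for 31.7% of 11349 genes in this direction and 9.57% in the other.

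At 1 h the log2 RF change of MAX was -0.26, where the median gene was at -0.19, and from read counts it was -0.04 with TMM or RLE scaling and -0.10 by total reads. At 2 h the log2 RF change of MAX was -0.85 in passage 3 (exact interval -1.003 to -0.69) and -0.81 in passage 4 (-1.18 to -0.46), so the passages differed by 0.03. The edgeR estimate was -0.65 (SE 0.19). MAX mRNA stood at an RPKM of 35.5 (DMSO) and 32.8 (Silvestrol), a log2 change of -0.12 (-0.19 to -0.04). The TE of MAX was 2.95 and 1.78 in passage 3 and 2.55 and 1.57 in passage 4, a log2 change of -0.73 and -0.70, where the gene medians were -0.31 and -0.25. In the edgeR interaction the change was -0.43 (SE 0.35).

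MXI1, a MAX-binding repressor of the MXD family, had far fewer reads than MYC or MAX. Its RF RPKM was 16.2 untreated, 16.1 with DMSO and 14.9 with Silvestrol at 1 h. At 2 h it was 13.8 and 12.4 in passage 3, and 11.1 and 8.55 in passage 4, the last from 26 reads. Each Silvestrol library lay below its own control in RPKM, and the groups as a whole overlapped. From read counts the log2 change at 1 h was above 0, at 0.07 with TMM or RLE scaling and 0.01 by total reads, and in passage 3 at 2 h it was -0.005 with TMM and 0.002 with RLE scaling. The log2 RF change was -0.16 (-0.42 to 0.10) in passage 3 and -0.38 (-1.08 to 0.27) in passage 4, and the edgeR estimate was -0.08 (SE 0.31). Leaving out 1 library moved that estimate across 0, from -0.50 without the passage 3 Silvestrol library to 0.16 without that of passage 4, and no change of MXI1 footprints was detectable at this depth. MXI1 mRNA stood at an RPKM of 6.25 (DMSO) and 4.98 (Silvestrol), a log2 change of -0.33 (-0.47 to -0.19). Its log2 TE change was 0.17 in passage 3 and -0.05 in passage 4. From read counts these were 0.38 and 0.11 with TMM scaling, and 0.20 and -0.07 by total reads. In the edgeR interaction the TE change of MXI1 was 0.35 (SE 0.54).

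Around these members, 7 lists with 126 genes of the pathway were read with the edgeR test of RFs at 2 h. That test called 834 of 11206 genes lower (7.44%) and 264 higher (2.36%), and 3402 had an unadjusted p under 0.05. Blocking on passage, it called 26.7% lower and 24.0% higher. The calls rest on both Silvestrol libraries: without the passage 3 Silvestrol library edgeR called 0 genes, and without that of passage 4 it called 53 lower and 1 higher.

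Among the other transcription factors of the MYC, MAX and MLX network, 8 of 10 were tested, and edgeR called 0, with 3 at an unadjusted p under 0.05. DESeq2 also called 0, and the block called 2 lower and 2 higher, against 26.7% and 24.0% of all genes. MXD3, a MAX-binding repressor, had a log2 RF change of 0.69 (SE 0.21), with an RF RPKM of 74.2 and 113 in passage 3 and 64.8 and 90.2 in passage 4. MNT, a repressor that also pairs with MAX, had -0.64 (SE 0.24), with an RF RPKM of 16.6 and 9.21 in passage 3 and 13.2 and 8.04 in passage 4, while its mRNA RPKM was 6.40 and 10.1. MLX, the partner of the glucose-sensing factors MLXIP and MLXIPL, had 0.51 (SE 0.17). The 2 genes the block called higher were MXD3 and MLX (edgeR adjusted p 8.68e-07 and 4.91e-05), and MNT was called lower (0.000311). The median log2 RF change of the tested genes was 0.22, against -0.02 over all genes.

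Regulators of MYC protein turnover included 3 that fell and 0 that rose among 17 tested. The block called 10 lower and 2 higher, against 26.7% and 24.0% of all genes. Without the passage 4 Silvestrol library 1 of the list was called lower, and without that of passage 3, 0 were. GSK3B, a kinase that marks MYC for degradation, fell from 54.7 to 6.84 RF reads per 1000000 (passage 3, 1430 and 82 reads) and from 51.7 to 5.66 (passage 4, 333 and 15 reads), a log2 change of -2.99 (SE 0.22, edgeR adjusted p 0.0134). It has over 1 entry in the table, and its entries were summed. PPP2R5A, a regulatory subunit of the phosphatase PP2A, fell from an RF RPKM of 20.2 to 6.13 and from 21.0 to 6.11, a log2 change of -1.61 (SE 0.20, edgeR adjusted p 0.0164). HUWE1, a ubiquitin ligase, fell from 65.2 to 26.2 and from 56.7 to 24.8, by 1.12 on the log2 scale (SE 0.15, edgeR adjusted p 0.0191). The median of the list was -0.44.

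Of MYC cofactors and chromatin partners, 20 were tested and 1 was called. SIN3B, a scaffold of histone deacetylase complexes, rose by 0.88 (SE 0.14, edgeR adjusted p 0.0255), with an RF RPKM of 32.4 and 51.8 in passage 3 and of 29.9 and 52.7 in passage 4. ZBTB17, the MYC partner also known as MIZ1, had 0.63 (SE 0.19), called higher with the block (edgeR adjusted p 0.000570). The call of SIN3B by the unblocked fit needed both Silvestrol libraries. The block called 5 lower and 6 higher, against 26.7% and 24.0% of all genes.

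Binders of the MYC mRNA or promoter had 2 genes that fell and 2 that rose among 18 tested. The block called 6 lower and 9 higher, against 26.7% and 24.0% of all genes. HNRNPD (AUF1), which binds AU-rich elements, fell, with an RF RPKM of 601 and 159 in passage 3 and of 603 and 124 in passage 4 (log2 change -1.61, SE 0.14, edgeR adjusted p 0.0136). TIAL1, another RNA-binding protein, fell by 0.71 (SE 0.14, edgeR adjusted p 0.0377). ZFP36, which promotes the decay of mRNAs with AU-rich elements, rose from 18.8 to 59.3 and from 8.41 to 45.7 (log2 change 2.05, SE 0.42, edgeR adjusted p 0.0423), and its mRNA RPKM was 8.69 and 18.5. PTBP1, a splicing and translation regulator, rose by 0.71 (SE 0.13, edgeR adjusted p 0.0341). Without the passage 4 Silvestrol library edgeR called 1 of the list lower and 0 higher, and without that of passage 3 it called 0.

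Known targets of MYC were read in the same way. Of MYC-activated genes 28 were tested and 1 was called, ODC1, the first enzyme of polyamine synthesis. ODC1 footprints fell, with an RF RPKM of 153 and 41.9 in passage 3 and of 88.3 and 35.1 in passage 4 (log2 change -1.45, SE 0.30, edgeR adjusted p 0.0422), and its mRNA RPKM was 153 and 120. CCND2, a G1 cyclin, had a log2 RF change of -1.75 (SE 0.61), from 163 and 19 reads in passage 3 and 18 and 2 in passage 4. CCND2 was not called by the unblocked fit and was called lower with the block (edgeR adjusted p 2.99e-05). EIF4E, the cap-binding factor, had 0.63 (SE 1.58), also at few reads. The median log2 RF change of the list was 0.19, and its median mRNA change was -0.10. When either Silvestrol library was left out, or with the entry of highest mean RF RPKM for each symbol, edgeR called 0 of the list. The block called 5 lower and 11 higher, against 26.7% and 24.0% of all genes. Of MYC-repressed genes 4 were tested, and edgeR, DESeq2 and the block each called 0, with 0 at an unadjusted p under 0.05. CDKN1A, the cell cycle inhibitor p21, had -0.13 (SE 0.15), GADD45A, a stress gene, -0.12 (SE 0.30) and CDKN1B, the inhibitor p27, -0.10 (SE 0.20). In mRNA, 1 of the 4 was at least 2-fold higher: GADD45A had an mRNA RPKM of 35.7 and 132 (log2 change 1.88), with log2 RF changes of -0.72 in passage 3 and 0.33 in passage 4. The mRNA change of CDKN1B was 0.80.

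Among the 7 lists, genes with short-lived mRNAs had the largest median mRNA change. MYC belongs to this class but is not on the list. The list was chosen with earlier results of these data known, so its shares are a description and not a test of the class. Of 21 measured, 10 had an mRNA RPKM at least 2-fold higher with Silvestrol and 0 at least 2-fold lower, against 5.85% and 2.54% of all genes, with a median log2 change of 0.90 against 0.05. In RFs at 2 h, 4 rose and 2 fell. The block called 12 higher and 5 lower, against 24.0% and 26.7% of all genes. DESeq2 called 8 higher and 3 lower, against 4.79% and 8.75%. The median log2 RF change was 0.57 at 2 h. At 1 h it was -0.35, against -0.19 over all genes, and 6 of 21 genes of the list were at least 2-fold lower, against 8.16% of all genes. Without the passage 4 Silvestrol library edgeR called 1 lower and 0 higher, and without that of passage 3 it called 0. EGR1, an immediate early transcription factor, rose from an RF RPKM of 10.3 to 64.5 and from 1.79 to 54.6 (log2 change 3.298, SE 0.71, edgeR adjusted p 0.0461), with an mRNA RPKM of 2.89 and 37.2. ATF3, a stress-induced factor, rose by 1.17 (SE 0.25, edgeR adjusted p 0.0470).

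The list did not move one way in RFs. CCND1, cyclin D1, fell, with an RF RPKM of 1070 and 335 in passage 3 and of 1111 and 455 in passage 4 (log2 change -1.30, SE 0.16, edgeR adjusted p 0.0164), while its mRNA RPKM was 171 and 233. SOX9, a developmental transcription factor, fell by 1.24 (SE 0.21, edgeR adjusted p 0.0294), with an mRNA RPKM of 27.6 and 56.0. JUN, a subunit of the AP-1 factor named here after its values were seen, had an mRNA RPKM of 55.4 and 154, and an RF RPKM of 195 and 90.0 in passage 3 and 116 and 107 in passage 4.

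**Figure D4:**
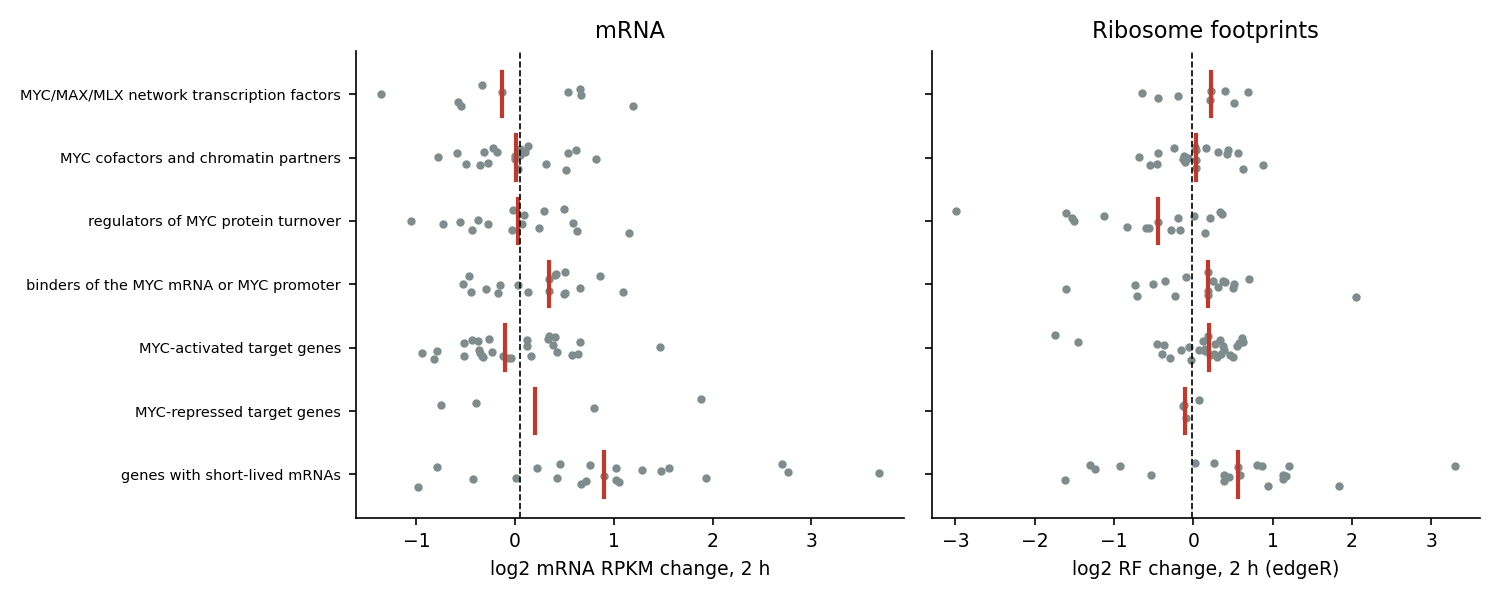
Log2 change with Silvestrol at 2 h of each measured gene of the 7 lists (points, spread vertically for legibility), mRNA RPKM on the left and the edgeR estimate for RFs on the right, with the list median as a red bar and the median of all genes as a dashed line. The mRNA median of genes with short-lived mRNAs is 0.90, against 0.05 for all genes, and the RF median of the turnover regulators is -0.44.

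The genes whose pattern was most like that of MYC were found by the Euclidean distance over 4 log2 RPKM changes (mRNA at 2 h and RFs at 1 h, at 2 h in passage 3 and at 2 h in passage 4) among 9865 genes. They were KLF5 (distance 0.312), DCLK2 (0.337), ZNF699 (0.452), NHSL1 (0.452), NR1D1 (0.472), IRS2 (0.497), ZNF217 (0.50) and ZNF614 (0.509), where the median gene was at 1.97. KLF5, a zinc finger transcription factor, had log2 changes of 1.42 in mRNA, -0.75 in RFs at 1 h, and -0.66 and 0.01 in RFs at 2 h in the 2 passages. NR1D1, the nuclear receptor REV-ERBα, had 1.35, -0.76, -0.56 and 0.53 in the same order. Across the 8 genes mRNA changes ranged from 0.94 to 1.42, and each had lower RFs at 1 h and at 2 h in passage 3.

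A loss of mRNA together with RFs, the pattern first ascribed to MYC, was rare. Lower values by at least 2-fold in mRNA and in RFs of both passages were found for 5 of 9870 genes (0.0507%), and MYC, MAX and MXI1 were not among them. These were MR1, EGLN3, FAM20C, PRKAR2A and WDR45. PRKAR2A, a regulatory subunit of protein kinase A, had an mRNA RPKM of 25.9 and 12.7, and an RF RPKM of 96.6 and 42.6 in passage 3. EGLN3, an oxygen-sensing prolyl hydroxylase, had an mRNA RPKM of 6.08 and 2.50.

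With INK128, MYC footprints were higher. RF FPKM (the same kind of unit, in fragments) of MYC was 87.8 with DMSO and 154 with INK128, 1.76-fold higher (log2 change 0.81), above 98.1% of 10798 genes. At least 2-fold higher RFs were seen for 1.22% of those genes and at least 2-fold lower RFs for 1.45%, and MYC, MAX and MXI1 were in neither class. RF FPKM of MAX was 15.2 and 11.6 (log2 change -0.39), with 5.79% of genes lower, and that of MXI1 was 2.88 and 2.61 (-0.14). There was 1 library per treatment and no read count, so no interval can be given.

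Total RNA FPKM was lower with INK128 for most genes, with a median log2 change of -1.17 and 71.5% of 10807 genes at least 2-fold lower, MAX among the members. MYC had a total RNA FPKM of 6.17 with DMSO and 4.41 with INK128 (-0.48), which is 0.69 above the median change. MAX had 1.09 and 0.544 (-1.01), 0.17 above the median, and MXI1 had 0.258 and 0.135 (-0.94), 0.24 above it. With 0.1 added to each FPKM the changes were -0.89 for MAX, then less than 2-fold, and -0.61 for MXI1. With 1 added they were -0.44 and -0.15. The ratio of RF to total RNA changed by 0.11 relative to the median gene for MYC, by -0.58 for MAX and by -0.40 for MXI1. For MYC, RFs were 0.80 and total RNA 0.69 above the median change. PVT1 has a row of its own in this table, with an RF FPKM of 1.07 and 1.37.

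**Figure D5:**
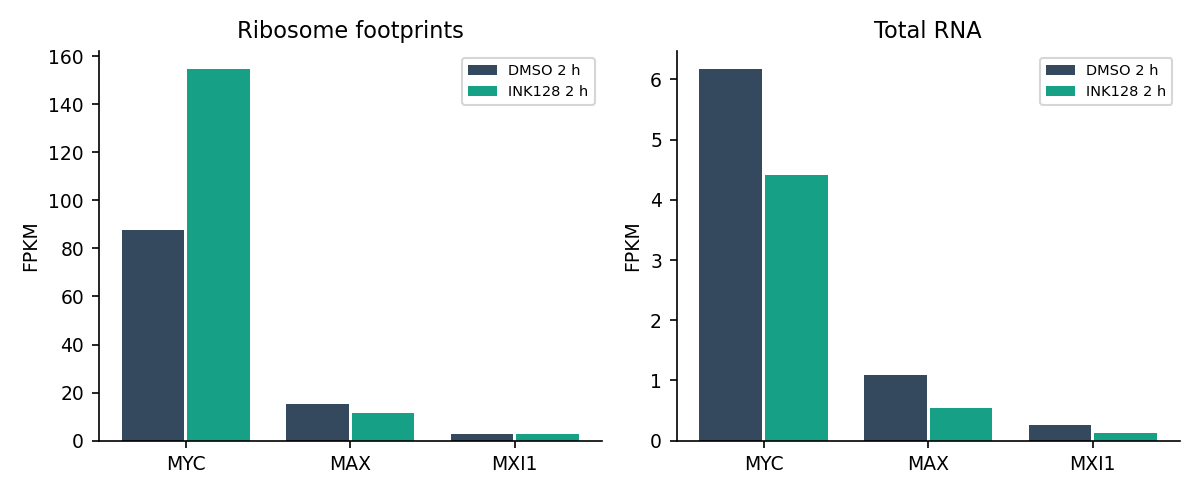
FPKM of MYC, MAX and MXI1 in the INK128 experiment, RFs left and total RNA right, 1 library per bar on linear scales, DMSO dark and INK128 green. MYC RF FPKM is 87.8 and 154, while the 3 total RNA values are all lower with INK128, as the median of all genes was.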

How the data were processed

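RFs and mRNA of MDA-MB-231 cells were read from 2 tables that the authors deposited. For Silvestrol, the authors trimmed linkers, discarded rRNA reads, aligned the remainder to hg19 and to UCSC canonical transcripts by Bowtie, allowing 2 mismatches and 16 alignments, and deposited counts of unique reads and an RPKM value per line. For INK128, the authors deposited FPKM values without counts, and the program that made them is not given in the sources used here. Per the labels, the processing notes name CASAVA 1.8.1 and Bowtie2. Mean, TE, log2 and z-score columns of the authors were not used. The number of other per-sample columns left out was 0.

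The 38897 Silvestrol lines were reduced to 25401 entries by dropping repeated values, and entries of 1 symbol were summed (461 of 24875 symbols). MYC was the exception: in each library the line with the MYC counted length was used. Counted lengths needed at least 20 reads, and a common factor per library was removed. These rules, and the alternatives to them, were chosen after the MYC lines had been seen. RPKM changes used symbols with 1 entry and MYC, without a pseudocount, with at least 50 reads over the libraries compared. FPKM changes used genes with a mean of at least 1 in RFs or 0.1 in total RNA. At least 2-fold was the call where a treatment had 1 library.

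The test of RF counts at 2 h was that of edgeR 4.0.16 under R 4.3.3 (filterByExpr, TMM, glmQLFit and glmQLFTest, adjusted p by Benjamini-Hochberg under 0.05), and TE as the interaction of assay and treatment. DESeq2 1.42.0 was an alternative. Scripts were tested on simulated data. SE is from the edgeR test. The labels give each library a passage number but do not say whether DMSO and Silvestrol libraries share a culture. At 2 h, deviations of a passage from the treatment mean correlated between DMSO and Silvestrol RFs, with r = 0.591 over 11206 genes. Passages were therefore taken to pair the samples in the fit with the block, while the main test left the pairing out. Depth per library and exact binomial intervals cover counting error only.

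The members and lists were chosen with earlier results of these data known. Genes named from a list were up to 4 called genes with the largest RF change, or up to 3 tested genes where fewer than 2 were called, with the 8 genes most like MYC and 5 genes of the joint loss. Of the genes this rule names, 1 is not reported here.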

Additional observations from a re-analysis of the deposited data

Results flagged for a closer look

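MYC footprints at 2 h went opposite ways in the 2 passages. The log2 RF change with Silvestrol was -0.86 in passage 3 and 0.20 in passage 4, with 1 library per treatment in each passage, and the difference between the passages was not tested. In passage 4 the MYC values stand on the line labelled with the PVT1 entry, taken as MYC by its counted length, and the line labelled MYC held 0 reads there. With the entry of highest mean RF RPKM in place of the matched line, the edgeR RF estimate over both passages was -0.68 (SE 2.55) rather than -0.22 (SE 0.25). The change in passage 4 minus that in passage 3 was 1.07 for MYC, and over 19 genes with short-lived mRNAs it had a median of 0.39 and ranged from -1.45 to 2.28.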

How the results depend on the processing

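The MYC line decides the mRNA and TE results. Read by the label of line NM_002467, the log2 mRNA change of MYC was -3.03 in place of 1.41 and its log2 TE change in passage 3 was 2.17 in place of -2.27. The lines as labelled hold transcripts of different counted lengths in the 2 mRNA libraries. Both lines summed gave the direction of the main values, but the sum follows the longer line and cannot tell which line is MYC. From read counts, the MYC mRNA change was 1.34 with TMM and 1.34 with RLE scaling and 1.46 by total reads, and the RF change at 1 h was -0.71, -0.71 and -0.77. The total RNA change with INK128 was also taken relative to the median of genes at an FPKM of at least 1 in all 4 libraries. It was then 0.63 for MYC in place of -0.48, 0.11 for MAX in place of -1.01 and 0.18 for MXI1 in place of -0.94.

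Counts over all genes moved more. With the replicate block, which pairs the passages, edgeR called 2994 genes lower and 2689 higher in RFs, and 2474 lower and 2376 higher in TE. With the untreated library added, RF calls were 1778 lower and 920 higher. DESeq2 called 537 higher in RFs, and 519 lower and 360 higher in TE. Without a low-count filter, 467 were higher in RFs, and 361 lower and 86 higher in TE. With the entry of highest mean RF RPKM, 175 were higher in RFs and 3 lower in TE. When each RF library was left out in turn, RF calls ranged from 0 to 1170 lower and from 0 to 551 higher, and TE calls from 0 to 1143 lower and from 0 to 938 higher. Genes with joint loss numbered 138 at 1.5-fold, 0 at 3-fold, 1 with a minimum of 200 reads and 1 relative to the median changes. For these counts the cause was not tested. Among the 3 members, MXI1 had the fewest reads, with 26 in the passage 4 Silvestrol library.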
